A study of Mus musculus with 2 samples.

Results

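The endoplasmic reticulum folding and stress genes are 32 genes whose products fold, modify, move or degrade proteins of the secretory pathway, or sense and answer their misfolding. They were chosen by name, and each was read by its brightest probe set, the one with the highest mean signal over both arrays, among probe sets annotated with a single gene symbol. All 32 were found among the 18193 genes with such a probe set, and on both arrays all 32 exceeded the signal floor defined below, as did 11565 genes in all. The study sought targets of signalling through the IIIb splice form of fibroblast growth factor receptor 2 (FGFR2-IIIb) in the hair follicle. It compared follicles of dnFGFR2-IIIb transgenic mice with follicles of wild-type mice, both at postnatal day 10. Each group was 1 Affymetrix Mouse430_2 array, hybridised with total RNA pooled from about 300 follicles of 3 mice from separate litters. The labels used here do not give the promoter that drives the transgene, the strain or the sex of the mice.

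Secreted and membrane proteins enter the endoplasmic reticulum through the Sec61 channel, where chaperones of the Hsp70, Hsp90 and lectin families hold them while disulfide isomerases form and rearrange their cysteine bonds. Proteins that fail to fold are sent back to the cytosol and degraded. A load of unfolded protein activates the membrane sensors ATF6, IRE1 and PERK, which raise the chaperones through ATF6 and XBP1 and, through the transcription factor ATF4, the amino acid genes and the factor CHOP. In the follicle, adhesion receptors, desmosomal cadherins and basement membrane proteins are made on this route, whereas the keratins of the hair shaft are made in the cytosol.

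Part of this regulation is written in the promoters of the genes, and its elements are shown here because they recur among these genes. The genes were chosen by name as known folding and stress genes, so this recurrence is not an independent finding. The endoplasmic reticulum stress element (ERSE) is CCAAT followed, after 9 free bases, by CCACG, and is bound by ATF6 together with the CCAAT-binding factor NF-Y. ERSE-II is ATTGG followed, after 1 free base, by CCACG, and is bound by the same factors or XBP1. Promoter windows of RefSeq (GRCm38.p6), running from 250 bases before to 50 bases after the annotated start, were matched for 27 of the 32 genes, the others being Hyou1, Hspa13, Manf, Derl1 and Atf6. On either strand, ERSE occurred in 8 of the 27 windows (29.6%), against 39 of all 32851 windows (0.119%). ERSE-II occurred in 2 of the 27 (7.41%), against 12 of all windows (0.0365%). The matches are printed in the direction of the element, with its fixed letters in capitals and the spacer in lower case, and the strand given is that of the element.
Hspa5, chr2:34772025-34772043, + strand: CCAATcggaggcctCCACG
Hsp90b1, chr10:86705638-86705656, - strand: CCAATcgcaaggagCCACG
Hsp90b1, chr10:86705533-86705551, + strand: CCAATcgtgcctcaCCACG
Dnajc3, chr14:118937827-118937845, + strand: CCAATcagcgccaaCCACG
Calr, chr8:84847075-84847093, + strand: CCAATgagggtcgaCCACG
Canx, chr11:50325800-50325818, - strand: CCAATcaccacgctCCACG
Creld2, chr15:88819520-88819538, - strand: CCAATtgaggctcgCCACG
Pdia6, chr12:17266491-17266509, + strand: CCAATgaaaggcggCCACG
Syvn1, chr19:6046532-6046550, + strand: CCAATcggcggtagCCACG
Herpud1, chr8:94386377-94386387, + strand: ATTGGgCCACG
Dnajb11, chr16:22857852-22857862, + strand: ATTGGcCCACG
The ERSE matches began from 44 bases (Syvn1) to 212 bases (Hsp90b1) before the start, and Hsp90b1 held a pair of them. Every gene with an ERSE encodes a chaperone or an isomerase except Syvn1, a ubiquitin ligase. The unfolded protein response element TGACGTGG was in 0 of the 27 windows and in 0.676% of all windows. Read on the other strand it begins with CCACG, so that a match could overlap an ERSE. No element overlapped another in the 27 windows. A match describes letters and not a bound site, and the window leaves out sequence farther from the start.

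The C/EBP-ATF response element, searched as TGATGNAA on both strands, is bound by ATF4 with a C/EBP partner. It occurred in 4 of the 27 windows (14.8%), those of Herpud1, Trib3, Asns and Chac1, and in 3.97% of all windows. The windows of 3 of them are shown whole because Asns and Chac1, both targets of ATF4, carried this element yet had ratios on opposite sides of 1, and because Herpud1 held both kinds of element. They are printed on the strand of the gene with the matched elements in capitals.
Asns, chr6:7693160-7693459, - strand: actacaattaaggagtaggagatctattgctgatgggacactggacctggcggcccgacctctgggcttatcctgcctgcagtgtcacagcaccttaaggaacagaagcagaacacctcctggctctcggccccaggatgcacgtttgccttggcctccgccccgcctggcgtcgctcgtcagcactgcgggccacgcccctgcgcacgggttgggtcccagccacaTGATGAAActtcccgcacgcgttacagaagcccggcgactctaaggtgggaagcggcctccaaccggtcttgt
Chac1, chr2:119350992-119351291, + strand: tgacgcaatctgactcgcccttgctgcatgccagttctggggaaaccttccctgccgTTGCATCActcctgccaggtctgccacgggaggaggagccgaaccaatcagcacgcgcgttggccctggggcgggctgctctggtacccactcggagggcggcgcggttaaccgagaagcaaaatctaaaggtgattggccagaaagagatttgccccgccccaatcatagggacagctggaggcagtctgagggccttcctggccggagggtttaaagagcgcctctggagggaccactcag
Herpud1, chr8:94386179-94386478, + strand: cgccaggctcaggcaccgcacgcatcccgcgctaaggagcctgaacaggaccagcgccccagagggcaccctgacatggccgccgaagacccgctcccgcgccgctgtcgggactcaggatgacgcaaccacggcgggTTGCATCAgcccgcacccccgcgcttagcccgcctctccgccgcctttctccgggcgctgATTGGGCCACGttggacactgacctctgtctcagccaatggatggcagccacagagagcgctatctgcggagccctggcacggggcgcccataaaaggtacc
The element began 23 bases before the start in Asns, 193 bases before it in Chac1 and 112 bases before it in Herpud1, where the ERSE-II began 52 bases before the start.

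The values are linear intensities in arbitrary units, scaled so that both arrays had the same trimmed mean. A signal can be compared between the arrays for 1 probe set, but not between probe sets, whose probes bind with different strength. The floor was set at 10.5, the 40th percentile over both arrays together, and the brightest of 27 control probe sets without a mouse target read 15.8 with transgenic and 8.50 with wild-type RNA. A signal just above the floor on the transgenic array therefore does not show detection. The ratio of 3' to 5' signal of beta-actin was 2.06 in transgenic and 1.89 in wild-type follicles, and that of Gapdh was 0.852 in transgenic and 0.796 in wild-type follicles. With 1 array a group there was no replicate and no test. As a technical yardstick, log2 ratios of probe sets that share a gene had an SD of 0.48 for dim, 0.37 for middle and 0.33 for bright genes. The cut-offs were those of the tertiles of genes by brightest probe set, but for this SD a gene was placed by the mean over its probe sets. The 32 genes were placed by their brightest probe set, 22 of them in the brightest tertile. The yardstick can therefore be too narrow for genes whose other probe sets are dimmer. In pooled follicles, fewer cells of a type and less RNA per cell cannot be told apart.

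None of the 32 genes differed by 2-fold between the arrays, so that 0 were higher and 0 lower, where 1.60% of all 11565 genes were higher and 1.58% lower. Such differences were rarer among bright genes, with 9 of the 3855 genes of the brightest tertile higher and 21 lower. Log2 ratios of transgenic over wild type ran from -0.41 for Edem1 to 0.68 for Ddit3. The ratio exceeded 1 in 23 of the 32 genes, against 49.9% of all genes, and the median was 0.11, against 0.00 over all genes. Within the brightest tertile it exceeded 1 in 16 of 22 of these genes, against 46.8% of all genes there. At 1.5-fold, Ddit3 and Pdia4 were higher and 0 genes were lower, where 6.36% of all genes were higher and 6.78% lower. In the brightest tertile 0 of the 22 genes passed 1.5-fold, where 47 of its 3855 genes were higher and 76 lower. Counted against the yardstick of its own tertile, 8 of the 32 genes were higher by more than 1 SD and 2 were lower, beside 12.9% and 13.1% of all genes. The 8 were Hyou1, Dnajb9, Dnajc3, Sdf2l1, Pdia3, Pdia4, Ddit3 and Chac1, and the 2 were Edem1 and Asns. This split depended on the scaling. With equal medians, Hyou1, Pdia4 and Ddit3 were higher and 5 genes (Hspa13, Dnajb11, Edem1, Derl1 and Asns) were lower, beside 7.38% and 22.7% of all genes. With equal spiked hybridisation controls, 14 were higher and 0 lower, beside 27.8% and 6.38% of all genes.

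The direction of the small ratios depended on how the arrays were scaled. Setting equal medians moved the median of all genes to -0.14 and left 13 of the 32 ratios above 1, with a median of -0.03. Setting equal spiked hybridisation controls moved the median of all genes to 0.19 and left 26 above 1, with a median of 0.31. Relative to the median of all genes in the same setting, the median of the 32 genes was higher by 0.10 to 0.16 under each setting tried. Scaling an array by a factor nearly cancels in this difference, so its likeness over such scalings follows by construction. Over the 6 scalings, 13 genes kept a ratio above 1 and 6 kept one below 1. The same count over all genes is not given, so these numbers describe the members and set them apart from no other genes. Those above were Hspa5, Hyou1, Dnajb9, Dnajc3, Sdf2l1, Pdia3, Pdia4, Herpud1, Syvn1, Eif2ak3, Ern1, Ddit3 and Chac1. Those below were Hspa13, Dnajb11, Edem1, Derl1, Trib3 and Asns, and the other 13 genes changed sides. Equal medians, equal spiked controls and no rescaling each shift all ratios by about the same amount. Keeping a side thus largely restates how far a ratio lay from 1, and is not separate support.

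**Figure D1:**
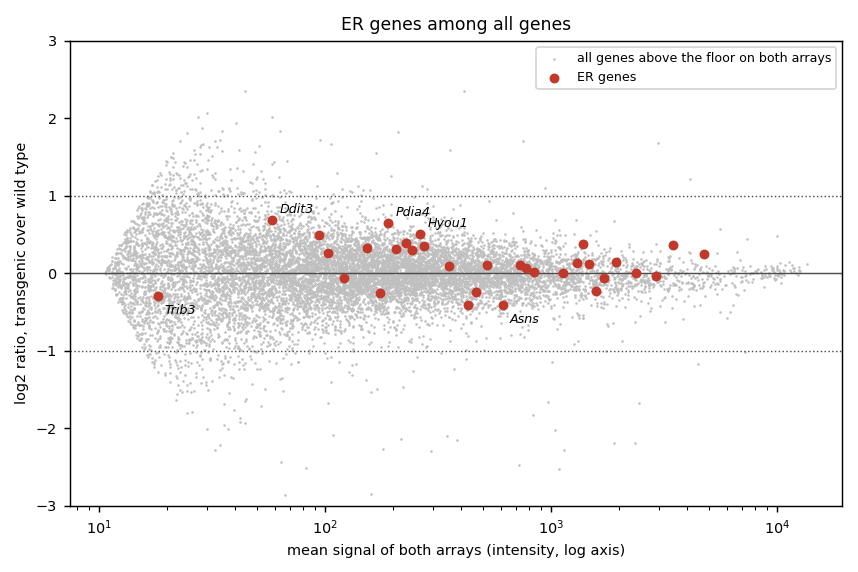
Log2 ratio of transgenic over wild type (vertical axis) against the mean signal of both arrays (horizontal log axis, intensity) for all 11565 genes above the floor on both arrays (grey) and the 32 endoplasmic reticulum genes (red); dotted lines mark 2-fold, and 5 grey genes lie outside the plot. All red points lie between the dotted lines, from -0.41 to 0.68, and 13 of them change side of 0 with the scaling.

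The chaperones had small ratios whose balance depended on the scaling. Of 12 genes, 9 had a ratio above 1, with a median log2 ratio of 0.12, whereas with equal medians 5 did and the median was -0.02. Hspa5 encodes BiP, the Hsp70 of the endoplasmic reticulum, and its brightest probe set read 5126 in transgenic and 4321 in wild-type follicles, a log2 ratio of 0.25. A second Hspa5 probe set gave 0.12, but a dimmer one gave -0.36, with 89.8 in transgenic and 114.9 in wild-type follicles. Hyou1, a large Hsp70-like protein that exchanges the nucleotide on BiP, read 309 in transgenic and 218 in wild-type follicles. Its log2 ratio of 0.50 was matched by 0.53 at its second probe set (88.7 in transgenic and 61.4 in wild-type follicles). A further one read 24.8 in transgenic follicles and fell short of the floor in wild-type follicles, so that it was at least 2.36-fold higher.

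The J-domain proteins, which hand clients to BiP and start its ATP cycle, did not share a direction. Dnajc3 read 259 in transgenic and 198 in wild-type follicles (log2 ratio 0.39). Its 4 probe sets with both signals above the floor all had ratios above 1, from 0.34 to 0.74. Dnajb9 read 308 in transgenic and 241 in wild-type follicles (log2 ratio 0.35). Dnajb11 went the other way, with 426 in transgenic and 503 in wild-type follicles (log2 ratio -0.24). Sdf2l1, which works in a complex with the Dnajb11 protein, read 109 in transgenic and 77.7 in wild-type follicles (log2 ratio 0.49). Dnajb9, Dnajb11 and Sdf2l1 each had a single probe set, so that no second reading bears on these 3 values.

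At their brightest probe sets, most of the remaining chaperones read almost alike on both arrays. The lectin chaperones hold glycoproteins while they fold, and of these Calr (calreticulin) read 2862 in transgenic and 2933 in wild-type follicles. Canx (calnexin) read 1127 on each, but its dimmer probe sets gave log2 ratios of 0.13 and 0.45. Those of Calr ran from -0.04 to 0.14 over all its probe sets. Hsp90b1, the Hsp90 of this compartment, read 790 in transgenic and 753 in wild-type follicles, a log2 ratio of 0.07. Its second probe set gave 0.52, with 575 in transgenic and 400.2 in wild-type follicles. Manf, a stress-induced protein that is secreted and binds BiP, read 1362 in transgenic and 1246 in wild-type follicles (log2 ratio 0.13). Creld2, another stress-induced protein, read 541 in transgenic and 501 in wild-type follicles (log2 ratio 0.11). Hspa13, an Hsp70 relative of the same compartment, had -0.25 at its brightest probe set (159 in transgenic and 189 in wild-type follicles) but from 0.09 to 0.36 at the others. These 3 other probe sets all lay above 1, so the sign for Hspa13 rests on the choice of probe set.

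**Figure D2:**
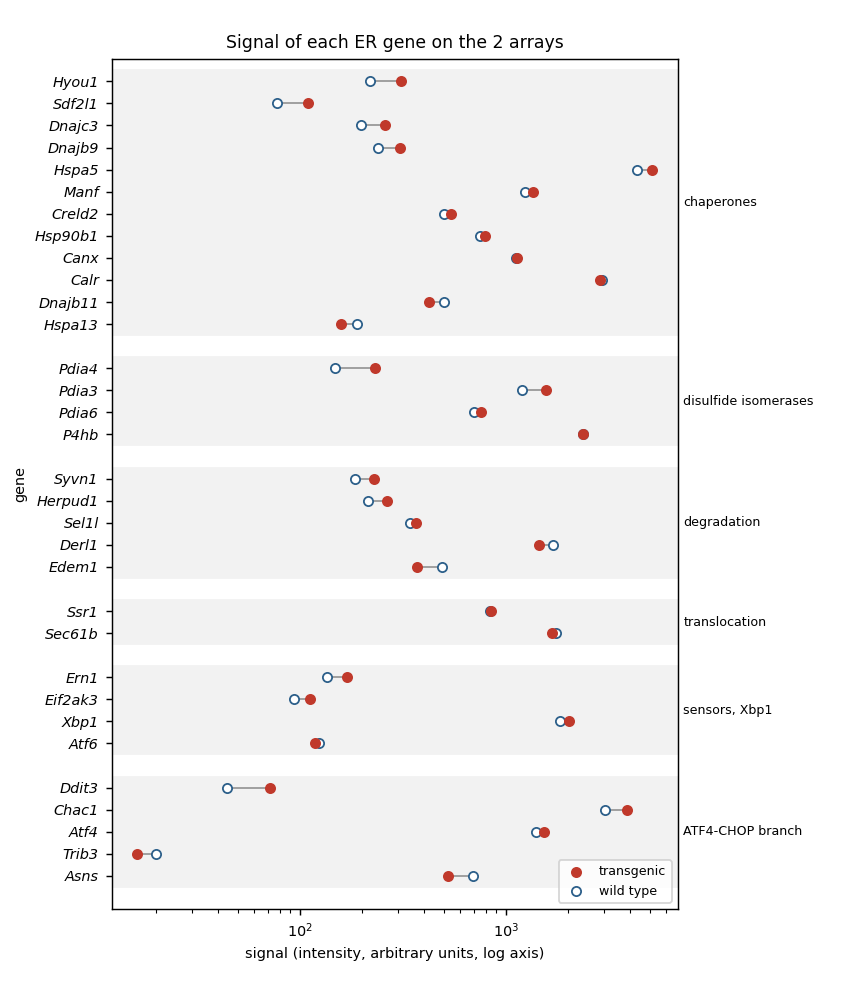
Signal (horizontal log axis, intensity in arbitrary units) of the brightest probe set of each of the 32 genes on the transgenic array (filled red) and the wild-type array (open blue), 1 array each, with genes (vertical axis) grouped by role. Grey lines join the 2 signals of a gene, and the points of Canx and P4hb coincide while those of Pdia4 and Ddit3 lie farthest apart; positions are to be compared within a row.

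Among the 4 disulfide isomerases, Pdia4 and Pdia3 read higher on the transgenic array and the others were close to 1. Pdia4, an isomerase that associates with the chaperones of the lumen, read 232 in transgenic and 148 in wild-type follicles, a 1.56-fold difference (log2 ratio 0.64). The other Pdia4 probe set was not above the floor in either pool. Pdia3, which works on glycoproteins held by calnexin and calreticulin, read 1564 in transgenic and 1201 in wild-type follicles (log2 ratio 0.38). Pdia6, which binds BiP and acts on IRE1 and PERK, read 757 in transgenic and 704 in wild-type follicles, and its dim probe set gave a log2 ratio of 0.53. P4hb, the classical protein disulfide isomerase and a subunit of the collagen prolyl hydroxylase, read 2376 on each array. The median of the 4 was 0.24, and 0.10 with equal medians.

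Genes of degradation from the endoplasmic reticulum went both ways, with 3 of 5 ratios above 1 and a median log2 ratio of 0.10, which was -0.05 with equal medians. Syvn1 encodes the membrane ubiquitin ligase Hrd1, and it read 228 in transgenic and 185 in wild-type follicles, with log2 ratios of 0.31 and 0.50 at its 2 probe sets. Herpud1, a membrane protein that gathers the ligase complex, read 266 in transgenic and 216 in wild-type follicles, with log2 ratios of 0.30 on this probe set and 0.37 on its other one. Sel1l, the adaptor that holds Hrd1, read 365 in transgenic and 341 in wild-type follicles (log2 ratio 0.10), and its other probe sets ran from -0.52 to 0.31. With equal medians the ratio of Sel1l fell below 1. Derl1, a membrane protein that joins the ligase on the path out to the cytosol, read 1445 in transgenic and 1698 in wild-type follicles (log2 ratio -0.23), and all 4 of its probe sets were below 1, from -0.39 to -0.17. Edem1, which marks glycoproteins for disposal by acting on their sugar chains, had the lowest ratio of the 32, with 369 in transgenic and 489 in wild-type follicles (log2 ratio -0.41). Its other probe set gave 0.24, with 241 in transgenic and 204 in wild-type follicles, so that the direction for Edem1 is not settled by these probe sets.

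The genes of protein entry into the compartment did not differ by more than the yardstick. Sec61b, a subunit of the Sec61 channel, read 1669 in transgenic and 1745 in wild-type follicles, and Ssr1, a subunit of the translocon-associated complex, read 845 in transgenic and 836 in wild-type follicles. A dim Ssr1 probe set read 23.4 in transgenic follicles and did not reach the floor in wild-type follicles.

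The sensors and their transcription factors had small ratios at the level of RNA, which does not report their activation by cleavage, splicing or phosphorylation. Ratios exceeded 1 in 3 of the 4 genes, with a median log2 ratio of 0.20, or 0.06 with equal medians. Ern1, which encodes IRE1, read 170 in transgenic and 135 in wild-type follicles (log2 ratio 0.33), but its dim probe sets above the floor gave -0.28 and -0.21. Eif2ak3, which encodes PERK, read 112 in transgenic and 93.5 in wild-type follicles (log2 ratio 0.27), and no other probe set of it was above the floor in both pools. Atf6 read 119 in transgenic and 124 in wild-type follicles (log2 ratio -0.06), whereas its dimmer probe sets gave 0.35 and 0.71. Xbp1, whose RNA is spliced by IRE1 into the form that encodes the active factor, read 2015 in transgenic and 1831 in wild-type follicles (log2 ratio 0.14), and its 4 probe sets lay between -0.06 and 0.14. The annotation does not say which form of the Xbp1 RNA these probe sets read.

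The ATF4-CHOP branch held both the highest ratio and one of the lowest, and 3 of its 5 genes had a ratio above 1. Its median log2 ratio was 0.12, or -0.02 with equal medians. Ddit3, which encodes the transcription factor CHOP, read 71.7 in transgenic and 44.6 in wild-type follicles, a 1.61-fold difference (log2 ratio 0.68). Its other probe set read 27.6 in transgenic follicles and did not reach the floor in wild-type follicles, at least 2.63-fold higher. Both readings thus pointed the same way, in a gene of the dim tertile where the yardstick was widest. Atf4 itself, which is controlled largely at translation, read 1525 in transgenic and 1405 in wild-type follicles (log2 ratio 0.12), with -0.11 at another probe set.

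The targets of ATF4 and CHOP did not share a direction. Chac1, an enzyme that degrades glutathione, read 3895 in transgenic and 3031 in wild-type follicles (log2 ratio 0.36) with its single probe set. Asns, asparagine synthetase, read 525 in transgenic and 695 in wild-type follicles (log2 ratio -0.41), and its second probe set gave -0.48, with 361 in transgenic and 502 in wild-type follicles. Both exceeded the yardstick in this scaling, whereas with equal spiked controls the brighter one gave -0.21, within it. Trib3, a pseudokinase that is induced by CHOP and ATF4, lay near background, with 16.3 in transgenic and 20 in wild-type follicles. Its other probe set, which can match several transcripts, read 27.2 in transgenic follicles and did not reach the floor in wild-type follicles, so that Trib3 has no settled direction. The second Asns probe set is also of this kind, as are the brightest ones of Hyou1, Canx, Syvn1, Derl1 and Xbp1. Without such probe sets the log2 ratios were 0.53 for Hyou1, 0.13 for Canx, 0.50 for Syvn1, -0.26 for Derl1 and 0.11 for Xbp1.

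**Figure D3:**
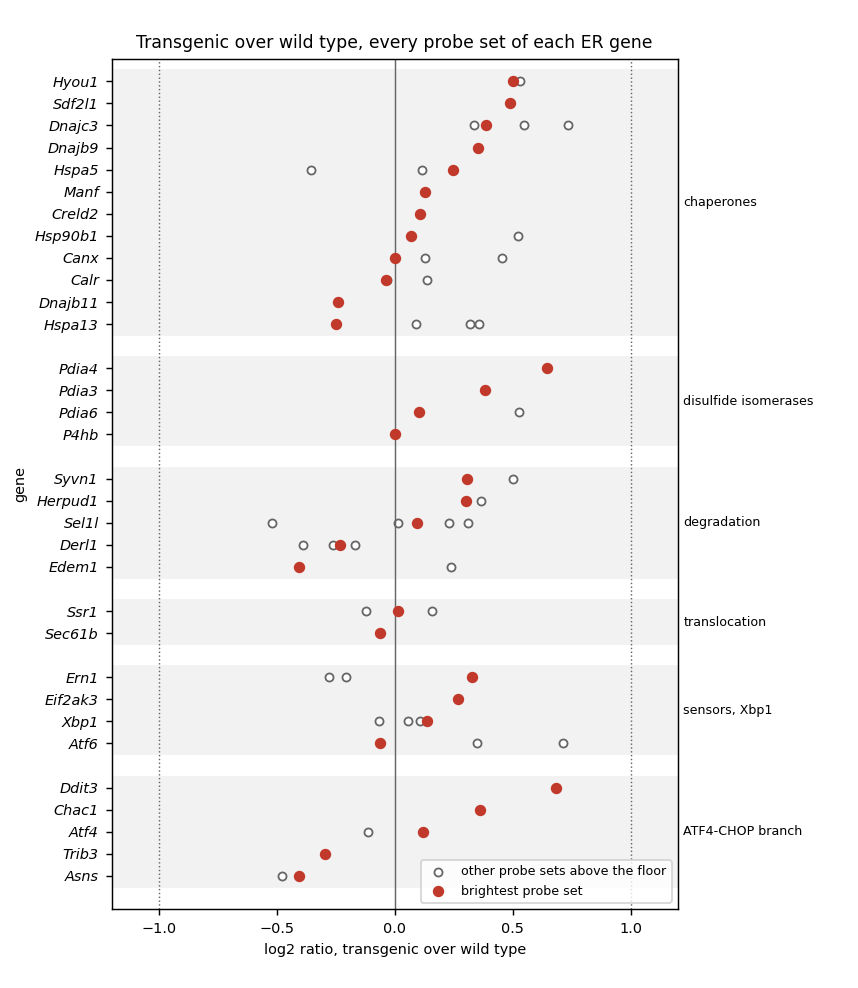
Log2 ratio of transgenic over wild type (horizontal axis) for every probe set of the 32 genes with both signals above the floor, 1 array per group, with genes (vertical axis) grouped by role; filled points are the brightest probe set, open points the others, and dotted lines mark 2-fold. Probe sets of Dnajc3, Hyou1, Syvn1 and Herpud1 lie on the higher side and those of Derl1 and Asns on the lower side, while those of Edem1, Hspa13 and Atf6 lie on both sides.

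The 32 genes had 80 probe sets, of which 68 exceeded the floor on both arrays, and 0 of these were 2-fold apart in either direction. Ratios exceeded 1 in 47 of the 68, with a median log2 ratio of 0.12. Of the 19 genes with at least 2 such probe sets, 9 had all of them on the same side of 1 and 10 had them on both sides. These counts of probe sets have no counterpart over all genes here. A further 8 probe sets had 1 signal above the floor. In 4 of these, of Ddit3, Trib3, Hyou1 and Ssr1, the transgenic signal was at least 2-fold above the floor, and in 0 the wild-type signal was. Among all such probe sets of the arrays, 8.98% were 2-fold higher and 5.66% lower in this sense. The brightest control without a mouse target also exceeded the floor on the transgenic array alone, at 15.8 against 8.50 on the wild-type array.

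The ratios of genes with and without a stress element overlapped. The 10 genes with an ERSE or ERSE-II in the window had a median log2 ratio of 0.11, from -0.24 for Dnajb11 to 0.39 for Dnajc3, and 8 had a ratio above 1. The 17 without one had a median of 0.14, from -0.41 for Edem1 to 0.68 for Ddit3, and 13 had a ratio above 1. Among the genes with the ATF4 element, the log2 ratios were 0.36 for Chac1 and 0.30 for Herpud1, but -0.30 for Trib3 and -0.41 for Asns.

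The wider lists around the same functions had lower medians than the 32 genes under each of the 6 scalings, although no test was run on these differences. The list of translocation and signal peptide genes had 9 of 19 ratios above 1 and a median log2 ratio of -0.08. N-glycosylation and glycoprotein folding had 11 of 19 above 1 and a median of 0.04. Further degradation genes had 10 of 24 above 1 and a median of -0.02, and transport between the endoplasmic reticulum and the Golgi had 12 of 24 and 0.00. Rescaling an array by a factor moves all of these together, and with equal medians they ran from -0.22 for translocation to -0.10 for glycosylation, beside -0.03 for the 32 genes.

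The genes with the largest absolute ratios in these 4 lists went both ways, and several were dim or had probe sets that disagreed. Srprb, of the receptor of the signal recognition particle, read 111 in transgenic and 161 in wild-type follicles (log2 ratio -0.54), and its other probe sets gave -0.47 and 0.08. Spcs3, a subunit of signal peptidase, read 1034 in transgenic and 748 in wild-type follicles (log2 ratio 0.47). Calr3, a relative of calreticulin, read 21.2 in transgenic and 11.3 in wild-type follicles (log2 ratio 0.91), close to the floor. Uggt1, the sensor of misfolded glycoproteins, read 293 in transgenic and 212 in wild-type follicles (log2 ratio 0.47), while another probe set gave -0.40. In the degradation list both genes farthest from 1 were lower. Man1b1, a mannosidase that trims glycoproteins bound for disposal, read 27.8 in transgenic and 54.9 in wild-type follicles (log2 ratio -0.98), just short of 2-fold. Aup1, of the ligase complex, read 241 in transgenic and 340 in wild-type follicles (log2 ratio -0.50). Faf2 (log2 ratio 0.33) and Erlec1 (0.29) followed on the higher side, although other Erlec1 probe sets gave -0.08 and -0.24. In the transport list, Kdelr3, a receptor that returns lumenal proteins, read 13.5 in transgenic and 19.5 in wild-type follicles (log2 ratio -0.53), near the floor. Mcfd2, a cargo receptor subunit, read 471 in transgenic and 641 in wild-type follicles (log2 ratio -0.45). Bet1 (log2 ratio 0.37, with 0.02 at another probe set) and Sec24d (0.36) followed on the higher side.

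Of the 8 wider lists, oxidative folding held genes past 2-fold with both signals above the floor, 1 in each direction among 23. The lower one, Fkbp14, was not past it with equal spiked controls, and Man1b1 passed it with equal medians, quantile normalization and loess. Ero1b, an oxidase that recharges the disulfide isomerases, read 75.3 in transgenic and 33.5 in wild-type follicles, 2.25-fold higher. Another Ero1b probe set did not reach the floor in transgenic follicles and read 13.9 in wild-type follicles, so the probe sets disagreed. Fkbp14, a prolyl isomerase of collagen folding, read 13.6 in transgenic and 29.6 in wild-type follicles, both dim. The list had 14 ratios above 1 and a median of 0.06.

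The wider targets of ATF4 and genes of the integrated stress response also went both ways. Of 32 genes above the floor, 17 had a ratio above 1 and 0 were 2-fold apart with both signals above the floor, with a median of 0.04. Eif2ak2, a kinase that senses double-stranded RNA, read 28 in transgenic and 16.2 in wild-type follicles (log2 ratio 0.79). Stc2, a secreted glycoprotein, read 17.1 in transgenic follicles and did not reach the floor in wild-type follicles, but 2 other probe sets of it exceeded the floor in wild-type follicles and not in transgenic ones. Cebpg, a partner of ATF4, read 236 in transgenic and 187 in wild-type follicles (log2 ratio 0.34), while its other probe sets gave -0.63, with 78.7 in transgenic and 122 in wild-type follicles, and -0.15. Psph, of serine synthesis, read 362 in transgenic and 287 in wild-type follicles (log2 ratio 0.33) with its single probe set.

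Among 12 aminoacyl-tRNA synthetases, 9 were above 1 and the median was 0.05. Aars read 486 in transgenic and 695 in wild-type follicles (log2 ratio -0.52), while a second probe set gave -0.02. Wars read 199 in transgenic and 260.1 in wild-type follicles (log2 ratio -0.39), and its other 3 probe sets were also below 1, from -0.25 to -0.0041. Cars and Eprs were higher, with log2 ratios of 0.35 and 0.29 at their brightest probe sets. Chaperones of the cytosol and mitochondria, which serve other compartments, had 12 of 20 ratios above 1 and a median of 0.02. The highest ratio among them was that of Dnaja1, with 1474 in transgenic and 1039 in wild-type follicles (log2 ratio 0.50), while its other probe sets gave 0.24 and -0.04. Hsph1 followed with 374 in transgenic and 269 in wild-type follicles (log2 ratio 0.47), and its second probe set gave 0.09.

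**Figure D4:**
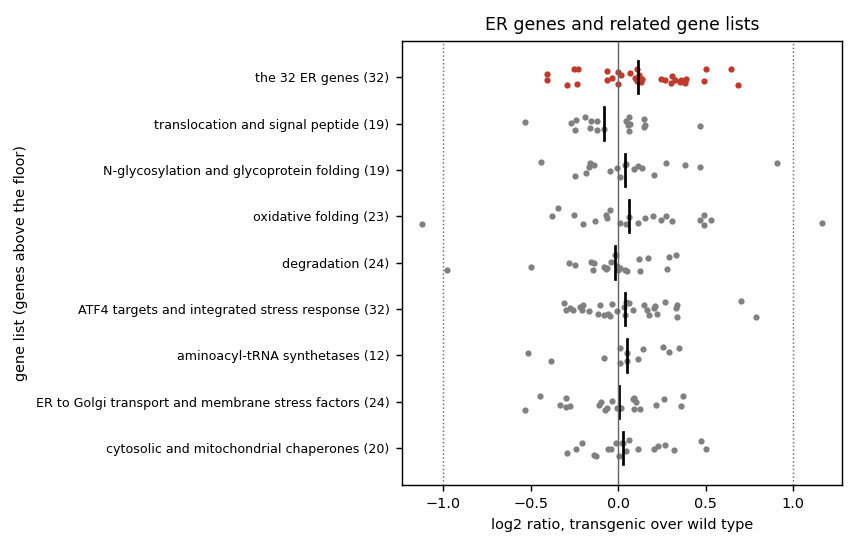
Log2 ratio of transgenic over wild type (horizontal axis, 1 array per group) for the 32 endoplasmic reticulum genes (red) and for related lists (grey), with the number of genes above the floor in brackets; each point is a gene, vertical bars are medians and dotted lines mark 2-fold. The medians run from -0.08 for translocation to 0.11 for the 32 genes, and rescaling moves them together, equal medians setting that of the 32 genes at -0.03.

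Markers of other cells also differed between the pools, and their part in these ratios was not tested. Of 7 markers of dermal papilla and fibroblasts, which secrete collagen, 5 had a ratio above 1, and their summed signal was 2961 in transgenic and 2139 in wild-type follicles, with Dcn at 1590 in transgenic and 985 in wild-type follicles. Of 6 markers of the outer root sheath and basal layer, 5 had a ratio below 1, with sums of 11646 in transgenic and 13853 in wild-type follicles. Of 6 immune markers above the floor on at least 1 array, 5 had a ratio above 1. Of these, H2-Aa, C1qa and C1qb did not reach the floor in wild-type follicles. All 6 markers were dim, with sums of 182 in transgenic and 103 in wild-type follicles. Markers of melanocytes and of sebocytes and adipocytes read lower in sum, at 12101 and 8011 in transgenic follicles against 13313 and 10512 in wild-type follicles. In each of these lists 2 of 6 markers had a ratio above 1. The brightest probe sets govern all such sums, and Fabp4 alone read 5108 in transgenic and 7211 in wild-type follicles. Of 6 markers of the interfollicular epidermis, 4 were above the floor and went both ways, with summed signals of 1102 in transgenic and 3355 in wild-type follicles. Ivl (involucrin) carried that sum, at 683 in transgenic and 3110 in wild-type follicles, whereas Krt10 read 225 in transgenic and 149.8 in wild-type follicles, Lor 130.1 in transgenic and 78.6 in wild-type follicles, and Krt77 63.8 in transgenic and 16.6 in wild-type follicles. Of 10 measured markers of B and plasma cells, whose secretion of antibody fills this compartment, 6 reached the floor in neither pool, among them Jchain, Cd79a and Cd79b. Mzb1, which encodes a lumenal protein of these cells, read 26.9 in transgenic follicles and did not reach the floor in wild-type follicles, whereas Irf4 did not reach it in transgenic follicles and read 14.1 in wild-type follicles. Sdc1, which epithelial cells also express, read 4277 in transgenic and 5262 in wild-type follicles, and Prdm1 read 592 in transgenic and 514 in wild-type follicles. The defining genes of the labelled tissue were bright on both arrays, with a median log2 ratio of 0.05 over 9 hair shaft keratins and 0.01 over 7 inner root sheath genes. The pools differed in sex-linked RNA, with Xist at 1146 in transgenic and 352 in wild-type follicles and Eif2s3y below the floor in transgenic follicles and at 191 in wild-type follicles, so that sex composition and genotype cannot be told apart.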

How the data were processed

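The deposited values are 1 linear intensity per probe set and array, scaled by the authors to a 2% trimmed mean of about 100, as the values show. The summary algorithm is not stated in these sources, and the array type is named per the file headers of the scanner information. The 64 control probe sets were left out, both columns were set to the same trimmed mean, and signals under the floor, the 40th percentile, were set to it. Genes were named from the platform annotation, and all 32 matched RefSeq (GRCm38.p6) under the same symbol by gene identifier. One further probe set, shared by Sec61b and another gene, was not used. A call required both signals above the floor and a 2-fold difference. A signal set to the floor makes the fold a lower bound, written "at least". Arrays number 1 per group, which limits the precision, and no test was run.

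All 32 genes are named, with up to 4 genes of largest absolute log2 ratio eligible from each wider list; markers outside this rule were named from their fixed list after their values were seen. The members and lists were chosen with earlier results of these data known. On simulated data with planted differences, the check required only that the median planted ratio was recovered. Its noise was smaller than the yardstick, and false calls were not checked. Alternatives covered scaling, floor, pseudocount, probe set choice and threshold. Python 3.11.15, numpy 2.4.6, pandas 2.3.3, scipy 1.17.1 and statsmodels 0.14.6 were used.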

Additional observations from a re-analysis of the deposited data

How the results depend on the processing

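Under the 15 alternative settings, the 32 genes gave 0 genes 2-fold lower in each case. They gave 0 genes 2-fold higher in each case except with all probe sets of a gene averaged, where 1 gene (Ddit3) passed, and with a threshold of 1.5-fold, where 2 (Ddit3 and Pdia4) did. The averaged Ddit3 value includes a wild-type signal that was set to the floor. With the second brightest probe set, Ddit3 (log2 ratio 1.39) and Trib3 (1.37) were past 2-fold. They were not called because their wild-type signals were under the floor. The median log2 ratio of 0.11 became -0.029 with equal medians and 0.31 with equal spiked controls, and the scaling of all genes moved with it by construction. Under the other 11 settings that recompute it, it stayed within the technical spread of a median. That spread was derived from the SD between probe sets and the number of genes, as if the genes were independent. Of 416 recomputed ratios of single genes, 405 moved by less than 1 SD between probe sets and 11 (of 9 genes) moved by more, all through the choice of probe set. Equal medians and equal spiked controls shift all ratios by less than the smallest SD. These settings therefore could not move a gene by this measure. Leaving out the rescaling, lowering the floor or removing it left the ratios of the 32 genes the same or nearly so. The 8 genes with 1 probe set also kept their value when probe sets were averaged or the second brightest was used. Many of the 405 were thus fixed in advance and do not show robustness. As 0 genes were called at the reported setting, no call could reverse. No paired analysis was possible because each group has 1 array. Signals near the floor, such as those of Trib3, limit what the dim probe sets can show.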
